A study of Homo sapiens with 8 samples.

Results

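Autophagy delivers damaged proteins, organelles and other cargo to the lysosome inside a membrane that grows, closes and fuses. The ULK1 kinase complex starts the process, a lipid kinase complex marks the membrane, lipid transfer proteins extend it, and a conjugation system attaches proteins of the LC3 and GABARAP family to it. Cargo receptors such as SQSTM1 (p62) hold their cargo with one end and bind LC3 or GABARAP with the other. Transcription factors of the MiT/TFE family, TFEB, TFE3 and MITF, drive genes of autophagy and of the lysosome. In erythroid cells the receptor BNIP3L is known for the removal of mitochondria during maturation.

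The genes described are 40 members of this machinery, chosen by name from the 19447 gene symbols in the count table. They comprise 5 genes of the initiation complex, 5 of the lipid kinase complex, 5 of phagophore growth and lipid transfer, 10 of the conjugation machinery, 5 of the LC3 and GABARAP family, 7 cargo receptors and 3 MiT/TFE factors. All 40 were found in the table.

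The libraries came from K562 cells, a human line established from a chronic myeloid leukaemia and labelled as wild type. Lip-1 is named in the labels by that short form alone, which is most often used for liproxstatin-1, a blocker of lipid peroxidation and thereby of ferroptosis. Cells given Lip-1 for 24 h and labelled Day 1 gave 4 libraries, 3 at 10 µM (replicates 2 to 4) and 1 at 20 µM (replicate 1). Cells without Lip-1, labelled Day 0, gave the 4 control libraries (controls 1 to 4). The labels name no vehicle, so Lip-1, any vehicle and the day of collection cannot be told apart. The 20 µM dose has 1 library, so that the dose and the library cannot be told apart either. The labels do not say whether the replicates came from separate cultures, and the p-values measure only the spread between these libraries, which may be technical.

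Total counts ran from 71151415 to 124240276 in the Lip-1 libraries and from 79063246 to 141307169 in the controls. The submitters' names use letters for 4 libraries (10 µM replicate 4, 20 µM replicate 1, controls 1 and 4) and digits for the other 4, a naming pattern that the labels do not call a batch. Erythroid genes, which mark K562 cells, were above 1 CPM (counts per 1000000 counts of the library) in all 8 libraries for 10 of 10 genes listed. Their summed level was 2757 to 4472 CPM in the Lip-1 libraries and 4220 to 7473 CPM in the controls. The globin genes HBG1 and HBG2 made up most of this sum in every library. The other erythroid genes listed, such as TAL1 at 10 µM, did not all move with it. T and B cell markers summed to 6.11 to 22.8 CPM with Lip-1 and 12.9 to 17.0 CPM in controls, endothelial markers to 0.781 to 2.72 and 1.08 to 1.83 CPM, and epithelial and fibroblast markers to 27.1 to 42.9 and 31.9 to 54.8 CPM. Monocyte and granulocyte markers summed to 19.3 to 106.7 CPM with Lip-1 and 17.7 to 123.8 CPM in controls, almost all of it LYZ, while the neutrophil gene ELANE was at 0 in all 8 libraries. The part of the lower erythroid sum in the results that follow was not tested. In bulk RNA, fewer cells of a type and less RNA per cell cannot be told apart.

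Comparison of the 4 Lip-1 libraries with the 4 controls asked how Lip-1 changes expression in these cells. Of the 38 members tested, 14 rose (7.47% of all genes), 2 fell (6.69% of all genes) and 22 did not pass the test. Calls in either direction thus covered 16 members, and 14.2% of the 13101 genes tested (edgeR quasi-likelihood test, Benjamini-Hochberg adjusted p under 0.05). The median log2 fold change of the tested members was 0.40, against 0.08 over all genes tested. The genes that rose were ULK1, RB1CC1, PIK3C3, ATG2B, WIPI1, MAP1LC3B, GABARAP, GABARAPL1, GABARAPL2, SQSTM1, NBR1, OPTN, TAX1BP1 and BNIP3L, and those that fell were ATG3 and ATG16L1. With the replicate number as a block, TAX1BP1, ATG3 and GABARAPL2 did not pass (adjusted p 0.0553, 0.0640 and 0.0606) and ATG2A did (adjusted p 0.0476). In CPM, which lacks the scaling of the tests, every Lip-1 library lay above every control in 22 of the 38 members. In 2 every Lip-1 library lay below, and in 14 the groups overlapped. Over all genes the groups did not overlap in 28.6%.

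The pooled comparison depended on single libraries. Without the 20 µM library 22 members were called, including all 16 of the above, beside 22.9% of all genes. Without control 1, 2, 3 or 4 the number was 3, 2, 1 and 2, beside 4.26, 1.11, 0.475 and 2.35% of all genes. Without 10 µM replicate 3 it was 9 (6.06% of all genes) and without replicate 4 it was 3 (2.33%). Without each of these controls and 10 µM libraries the share of all genes called was thus also below 14.2%. Among digit-named libraries alone 17 members were called, beside 24.2% of all genes. Among letter-named libraries alone 0 members and 0 of 13956 genes were called, with 17 members at an unadjusted p under 0.05 in the same edgeR test. The digit-named Lip-1 libraries are 10 µM replicates 2 and 3, and the letter-named ones are 10 µM replicate 4 and the 20 µM library. Dose and name pattern therefore cannot be told apart in these fits. SQSTM1 had a log2 fold change of 1.98 in the digit-named and 3.25 in the letter-named libraries. NBR1 had 0.90 and 0.98 in the same order. Gene by gene, the doses are therefore given apart, from a fit with 3 levels (control, 10 µM and 20 µM), which takes the spread of the lone 20 µM library to be that of the other groups.

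At 10 µM, 19 of the 39 members tested rose against control (9.34% of all genes), 3 fell (9.79%) and 17 did not pass. Calls in either direction covered 22 members and 19.1% of all 14857 genes. More genes were tested than in the pooled fit, since here a gene could pass the low-count filter through a lone library. With a filter of 1 CPM in 3 libraries, 25 members were called, beside 27.2% of 11562 genes. The median log2 fold change was 0.39 over the members and 0.05 over all genes. By role, the initiation complex had 3 members higher of 4 tested, the lipid kinase complex 2 of 5, phagophore growth 3 of 5, the LC3 and GABARAP family 4 of 5, the cargo receptors 6 of 7 with the other lower, and the MiT/TFE factors 1 of 3. The conjugation machinery had 0 of 10 higher and 2 lower. Without 10 µM replicate 3 or without replicate 4, 14 members were called each time, beside 9.20% and 9.90% of all genes.

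**Figure D1:**
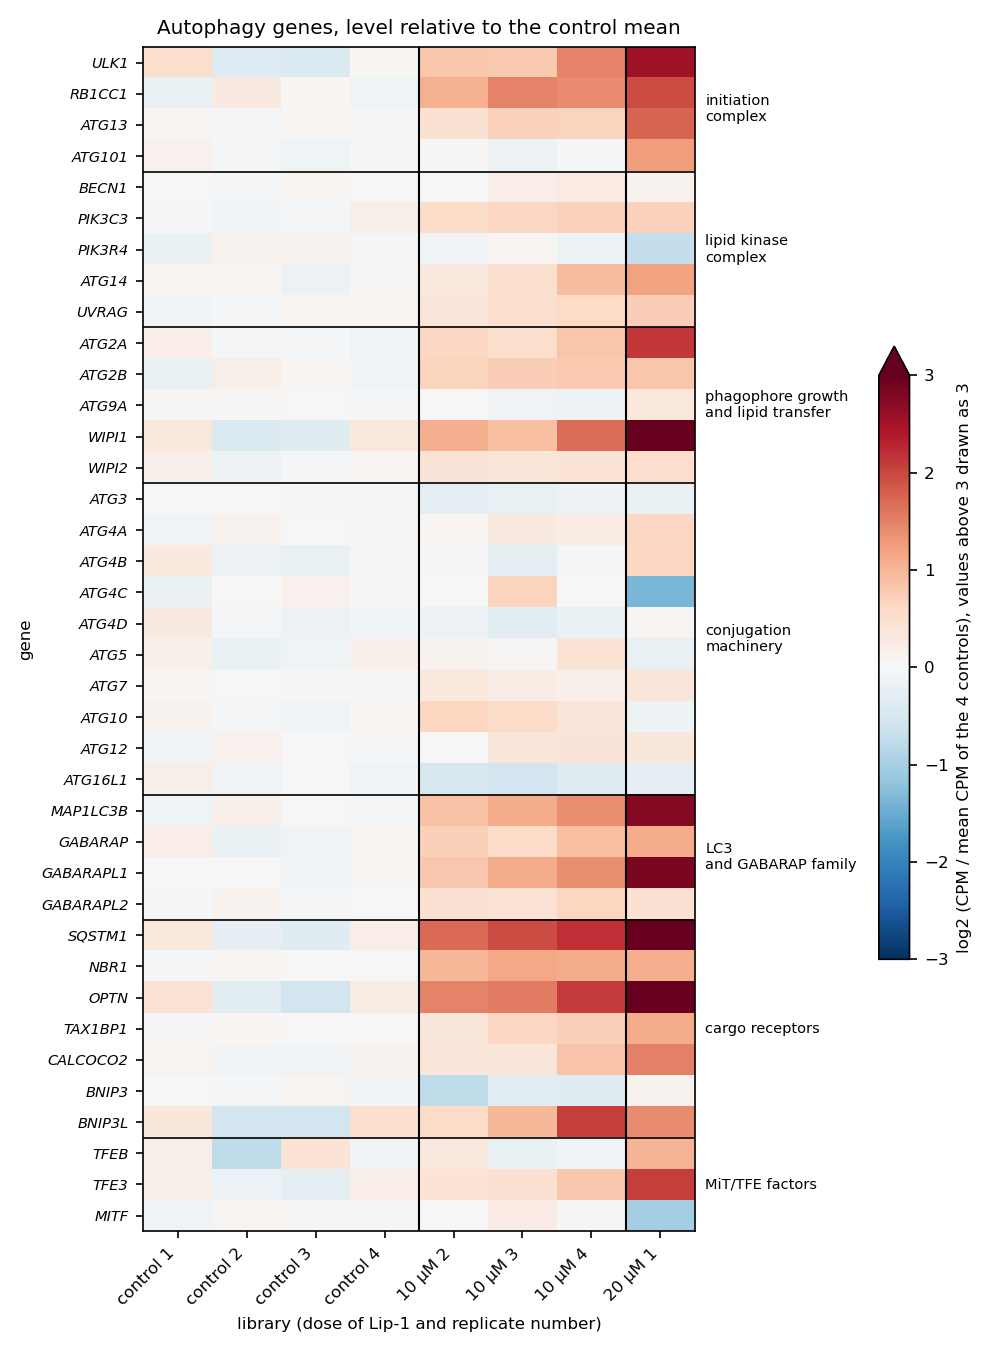
Level of 38 autophagy genes in each library, as log2 of CPM over the mean CPM of the 4 controls, grouped by role (ULK2 and MAP1LC3A, near 0 everywhere, are left out). Columns run from controls to 10 µM and 20 µM, and 3 values above 3 are drawn as 3. Red covers most of the initiation, LC3 and cargo receptor rows at 10 µM and deepens at 20 µM, while most conjugation rows stay pale.

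Initiation genes gave 3 increases at 10 µM. ULK1, the kinase that starts autophagy (chr12:131894651-131923167, GRCh38), had 41.2, 21.7, 20.9 and 29.7 CPM in controls 1 to 4, 50.8, 48.6 and 79.9 CPM in 10 µM replicates 2 to 4, and 166 CPM at 20 µM. All Lip-1 libraries lay above all controls, and controls 1 and 4 lay above controls 2 and 3. The log2 fold change at 10 µM was 0.95 (SE 0.23, adjusted p 0.0229). The value was 0.85 without control 2, 0.85 without control 3 and 0.71 without 10 µM replicate 4, and the call was then lost (adjusted p 0.0567, 0.0615 and 0.101). RB1CC1 (FIP200), the scaffold of the complex, had 50.2, 70.9, 61.0 and 53.6 CPM in controls, 123, 165 and 157 CPM at 10 µM and 229 CPM at 20 µM. The groups did not overlap, and the log2 fold change at 10 µM was 1.20 (SE 0.16, adjusted p 0.00257). At 20 µM it lay a further 0.63 above 10 µM (SE 0.24, adjusted p 0.0837). ATG13, the regulatory subunit, had 59.4, 54.8, 59.5 and 56.2 CPM in controls, 78.4, 93.3 and 91.4 CPM at 10 µM and 194 CPM at 20 µM, again without overlap. Its log2 fold change at 10 µM was 0.48 (SE 0.10, adjusted p 0.0132), or 0.41 with adjusted p 0.0527 without 10 µM replicate 3.

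ATG101, which stabilises ATG13, was called only at the step to 20 µM. It had 38.7, 34.2, 32.6 and 36.5 CPM in controls, 36.2, 31.7 and 34.3 CPM at 10 µM and 84.7 CPM at 20 µM. In CPM the 10 µM libraries fell within or just below the range of the controls, and only the 20 µM library stood above. The tests also apply scaling factors (TMM), 1.02 to 1.09 at 10 µM and 0.903 to 1.00 in controls. On that scale all 10 µM libraries lie below all controls. Its log2 fold change was -0.18 at 10 µM (SE 0.09, adjusted p 0.209) and 1.31 for 20 µM over 10 µM (SE 0.13, adjusted p 4.55e-04). ULK2, the second ULK kinase, had at most 8 counts in any library and did not enter the tests. It was at 0 in the 4 controls, where 3 counts correspond to at most 0.0379 CPM.

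The lipid kinase complex, which makes phosphatidylinositol 3-phosphate on the growing membrane, changed in part of its subunits. PIK3C3, the catalytic subunit VPS34, had 38.9, 38.5, 39.3 and 45.8 CPM in controls, 59.6, 62.4 and 66.0 CPM at 10 µM and 65.2 CPM at 20 µM. Every Lip-1 library lay above every control and the 20 µM library lay among those at 10 µM. The log2 fold change at 10 µM was 0.50 (SE 0.10, adjusted p 0.00934). UVRAG, the subunit of the endosomal form of the complex, had 28.5, 29.4, 31.3 and 31.2 CPM in controls, 38.95, 41.7 and 45.6 CPM at 10 µM and 49.98 CPM at 20 µM. The groups did not overlap, but the call was weak, with a log2 fold change of 0.35 (SE 0.11, adjusted p 0.0468) at 10 µM. It passed only without 10 µM replicate 2 among the fits that left out 1 library, and adjusted p was 0.0648 with the replicate block, 0.0576 with relative log expression scaling and 0.0586 with no filter on low counts.

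ATG14, the subunit that directs the kinase to autophagy, had 15.6, 15.3, 13.0 and 15.2 CPM in controls, 18.1, 20.6 and 28.2 CPM at 10 µM and 33.8 CPM at 20 µM. The groups did not overlap, and 10 µM replicate 4 was the highest of its dose. At 10 µM the log2 fold change was 0.46 (SE 0.15) and did not pass (adjusted p 0.0645). With the replicate number as a block it was 0.45 and passed (adjusted p 0.0364), as it did without 10 µM replicate 2 (0.56, adjusted p 0.0372) and with DESeq2 (0.45, adjusted p 0.0379). Without 10 µM replicate 4 it was 0.29 (adjusted p 0.235). BECN1 (Beclin 1), shared by both forms of the complex, and PIK3R4, its regulatory subunit, did not pass at 10 µM, with log2 fold changes of 0.03 (SE 0.10) and -0.19 (SE 0.14). BECN1 lay between 54.9 and 66.3 CPM in all 8 libraries. PIK3R4 was lowest at 20 µM, at 31.3 CPM, against 46.2 to 53.1 CPM at 10 µM (log2 difference -0.65, SE 0.21, adjusted p 0.0513).

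Among the genes of phagophore growth, WIPI1, a reader of phosphatidylinositol 3-phosphate (chr17:68420948-68457513), was called at both dose steps. Controls 1 to 4 had 16.6, 9.86, 10.4 and 16.5 CPM, 10 µM replicates 2 to 4 had 28.5, 24.9 and 42.7 CPM, and the 20 µM library had 180.1 CPM. No groups overlapped. WIPI1 rose by 1.14 on the log2 scale at 10 µM (SE 0.22, adjusted p 0.00899), and 20 µM exceeded 10 µM by a further 2.50 (SE 0.30, adjusted p 8.56e-04). ARSG on the opposite strand overlaps 24.3% of the exonic bases of WIPI1, and whether counting used strand is not given in the sources used here, so reads of the overlap could not be assigned.

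ATG2A and ATG2B, which carry lipids into the growing membrane, both rose at 10 µM, and ATG2A rose further at 20 µM. ATG2A had 73.5, 61.2, 61.5 and 58.6 CPM in controls, 97.3, 92.4 and 114 CPM at 10 µM and 278 CPM at 20 µM. ATG2B had 26.6, 34.6, 31.8 and 29.04 CPM in controls, 48.1, 50.7 and 52.7 CPM at 10 µM and 54.0 CPM at 20 µM. Neither gene overlapped with its controls. Log2 fold changes at 10 µM were 0.54 for ATG2A (SE 0.10, adjusted p 0.00945) and 0.59 for ATG2B (SE 0.13, adjusted p 0.0137, or 0.0513 without 10 µM replicate 3). The step to 20 µM was 1.46 for ATG2A (SE 0.15, adjusted p 4.71e-04) and 0.10 for ATG2B (SE 0.19, adjusted p 0.752). WIPI2, which recruits the conjugation machinery, had a log2 fold change of 0.26 at 10 µM (SE 0.09, adjusted p 0.0731), with every Lip-1 library above every control. ATG9A, the scramblase of the seed vesicles, had -0.22 (SE 0.10, adjusted p 0.150), and 38.8% of its exonic bases are shared with a same-strand read-through gene.

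In the conjugation machinery, 2 of 10 members fell at 10 µM and 0 rose, beside 9.79% and 9.34% of all genes. Calls in either direction were 20% of this list, near the 19.1% of all genes. ATG3, the enzyme that passes LC3 to its lipid, had 88.0, 89.6, 86.0 and 90.2 CPM in controls, 71.8, 76.2 and 79.1 CPM at 10 µM and 76.4 CPM at 20 µM. ATG16L1, which places the conjugation on the membrane, had 34.0, 28.1, 29.9 and 28.6 CPM in controls, 21.8, 20.6 and 23.3 CPM at 10 µM and 24.6 CPM at 20 µM. All Lip-1 libraries lay below all controls for both genes. Log2 fold changes at 10 µM were -0.35 for ATG3 (SE 0.09, adjusted p 0.0219) and -0.59 for ATG16L1 (SE 0.11, adjusted p 0.00898). The call of ATG3 was lost without control 2, 3 or 4 or 10 µM replicate 4 (adjusted p 0.0577, 0.0618, 0.0523 and 0.0527), while its log2 fold change stayed between -0.38 and -0.32 in every alternative.

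The other 8 conjugation genes did not pass at 10 µM. ATG7, the activating enzyme, ATG5 and ATG12, which form the conjugate that binds ATG16L1, and the LC3 protease ATG4A had log2 fold changes of 0.11, 0.06, 0.13 and 0.06. Over the 8 libraries ATG7 ranged from 28.8 to 38.6 CPM, ATG5 from 39.6 to 61.6 CPM, ATG12 from 50.2 to 69.1 CPM and ATG4A from 22.3 to 37.4 CPM. In CPM, ATG7 alone lay above all controls in every Lip-1 library. Its lowest Lip-1 value was 33.6 CPM in 10 µM replicate 4, against 31.2 CPM in control 1 and 30.7 CPM in control 3. The TMM factors were 1.09 in that replicate and 0.903 in control 3, so on the scale of the tests the ATG7 groups overlap. ATG10, the conjugating enzyme of ATG12, had 12.5 to 14.7 CPM in controls, 17.6 to 21.4 CPM at 10 µM and 12.2 CPM at 20 µM. Its 10 µM libraries lay above all controls (log2 fold change 0.40, SE 0.14, adjusted p 0.0728, or 0.0432 with the replicate block), but the 20 µM library lay below them, a log2 difference of -0.69 between the doses (SE 0.22, adjusted p 0.0445). That call was lost with the replicate block (adjusted p 0.0844), with relative log expression or upper-quartile scaling (adjusted p 0.0540 and 0.0539), with no filter on low counts (0.0676), and without control 2, 3 or 4 or 10 µM replicate 2 or 3 (adjusted p 0.0618, 0.0616, 0.0704, 0.0891 and 0.102). The proteases ATG4B and ATG4D had -0.26 and -0.35 at 10 µM (adjusted p 0.169 and 0.0655). ATG4C, the fourth protease, had 17.9 to 22.5 CPM in controls, 20.4, 32.7 and 20.9 CPM at 10 µM and 7.97 CPM at 20 µM, where it was lower than in every other library (log2 difference from 10 µM -1.64, SE 0.35, adjusted p 0.00894). ATG4B was highest at 20 µM, at 73.5 CPM, against 38.6 to 45.6 CPM at 10 µM (0.77, SE 0.17, adjusted p 0.0121), but with the replicate block the difference was 0.44 and did not pass (adjusted p 0.222).

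**Figure D2:**
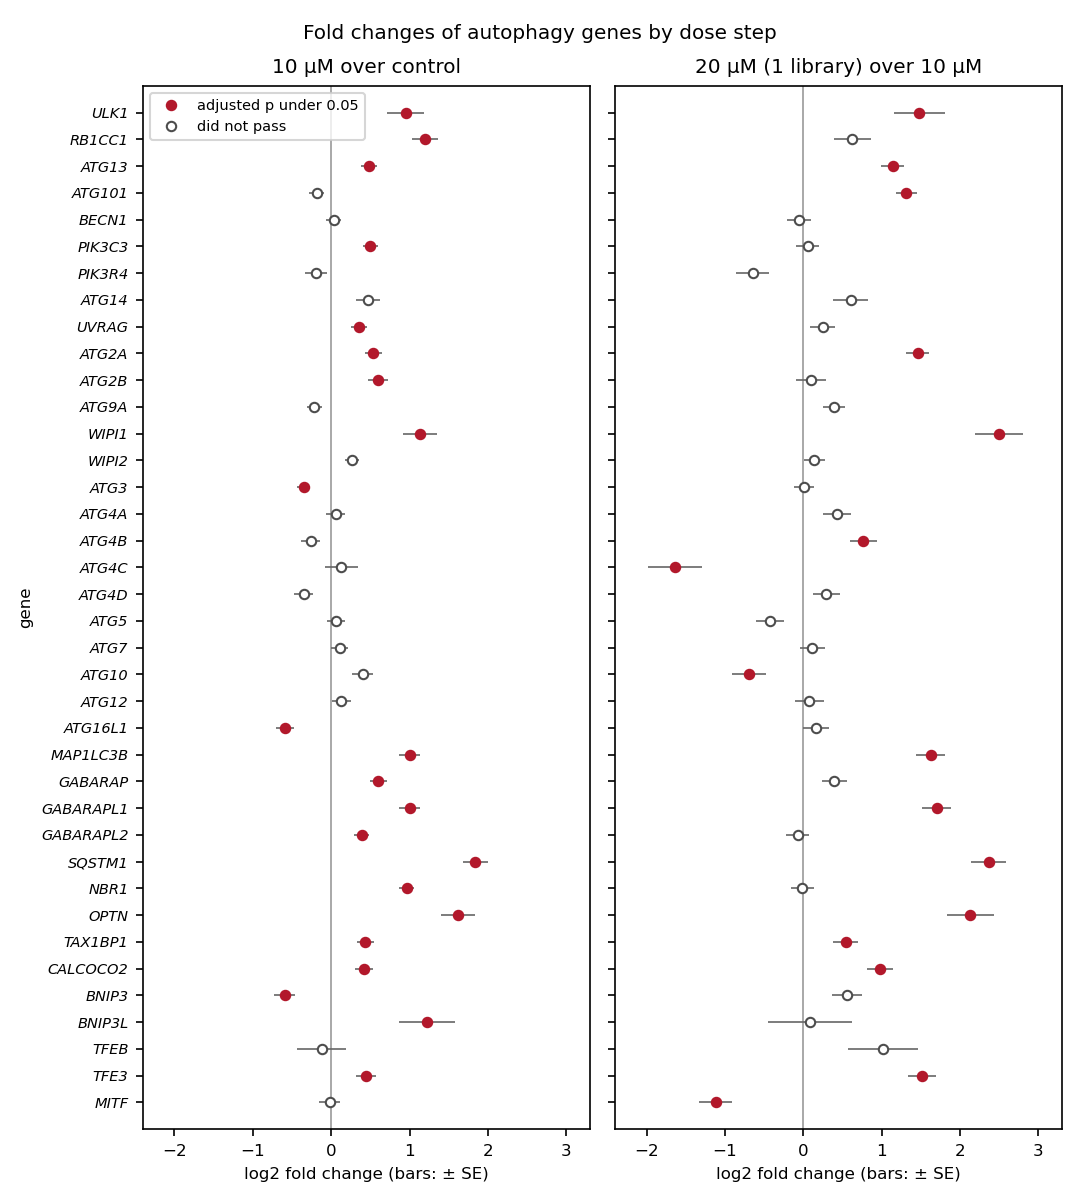
Log2 fold change of 38 autophagy genes at 10 µM over control (left) and at 20 µM over 10 µM (right), with bars of 1 SE from the 3-level edgeR fit and filled points for adjusted p under 0.05. SQSTM1, OPTN, WIPI1, MAP1LC3B and GABARAPL1 rose at both steps, while NBR1, PIK3C3, ATG2B and GABARAPL2 rose at the first step and lay near 0 at the second.

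In the LC3 and GABARAP family, 4 of 5 members rose at 10 µM. MAP1LC3B (LC3B, chr16:87383995-87404779), the family member most used as a mark of autophagosomes, had 81.5, 98.8, 90.1 and 88.0 CPM in controls, 164, 193 and 234 CPM at 10 µM and 606 CPM at 20 µM. GABARAPL1 had 15.3, 14.99, 14.3 and 15.8 CPM in controls, 26.6, 32.7 and 39.8 CPM at 10 µM and 107 CPM at 20 µM. Both genes were ordered by dose without overlap. At 10 µM the log2 fold change was 1.00 for MAP1LC3B (SE 0.13, adjusted p 0.00239) and 1.00 for GABARAPL1 (SE 0.13, adjusted p 0.00229). The step to 20 µM was 1.62 for MAP1LC3B (SE 0.19, adjusted p 7.21e-04) and 1.70 for GABARAPL1 (SE 0.18, adjusted p 5.41e-04). Near-identical copies exist for both (MAP1LC3B2 and GABARAPL3), and how reads were split between copies is not given in the sources used here.

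GABARAP and GABARAPL2, the other detected members of the family, also rose at 10 µM. GABARAP had 59.5, 45.5, 48.0 and 55.2 CPM in controls, 85.3, 75.7 and 97.0 CPM at 10 µM and 113 CPM at 20 µM. GABARAPL2 had 46.7, 52.5, 47.0 and 47.8 CPM in controls, 66.5, 65.9 and 76.1 CPM at 10 µM and 66.2 CPM at 20 µM. Each Lip-1 library exceeded each control in both genes, and the 20 µM library of GABARAPL2 lay within the range of the 10 µM libraries. At 10 µM the log2 fold change was 0.60 for GABARAP (SE 0.11, adjusted p 0.00754) and 0.39 for GABARAPL2 (SE 0.10, adjusted p 0.0245). The GABARAPL2 call was lost without control 3 or 4 or 10 µM replicate 3 or 4 (adjusted p 0.0570, 0.0667, 0.0603 and 0.0789). MAP1LC3A was at 0 in 6 of 8 libraries, with 21 counts in control 1 and 5 in the 20 µM library, and gave no call.

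Levels of different genes were set side by side per kilobase of exon, with all annotated exons of a gene joined. That length can exceed that of the RNA expressed, by an amount that differs between genes. Shares and ranks between genes are therefore approximate. The summed level of the family was 59.5 ± 1.67 CPM per kb in controls (SD, n = 4), 106 ± 13.7 at 10 µM (SD, n = 3) and 212 at 20 µM. The shares of its members are given as a description. MAP1LC3B formed 28.4 ± 2.60% of the sum in controls, 34.8 ± 2.64% at 10 µM and 53.8% at 20 µM. GABARAP formed 38.5 ± 4.09%, 35.9 ± 2.70% and 23.5% in the same order, and GABARAPL2 26.9 ± 1.62%, 21.7 ± 1.02% and 10.3%. GABARAPL1 was the smallest of the 4 detected members in controls, at 6.21 ± 0.125%, and formed 7.60 ± 0.756% at 10 µM and 12.4% at 20 µM, where it passed GABARAPL2. GABARAP led in controls and MAP1LC3B at 20 µM. AC120057.2 on the same strand overlaps 30.5% of the exonic bases of GABARAP, so its level and share are uncertain where reads of the overlap were counted to either gene. At 10 µM GABARAP and MAP1LC3B did not differ beyond their spread.

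**Figure D3:**
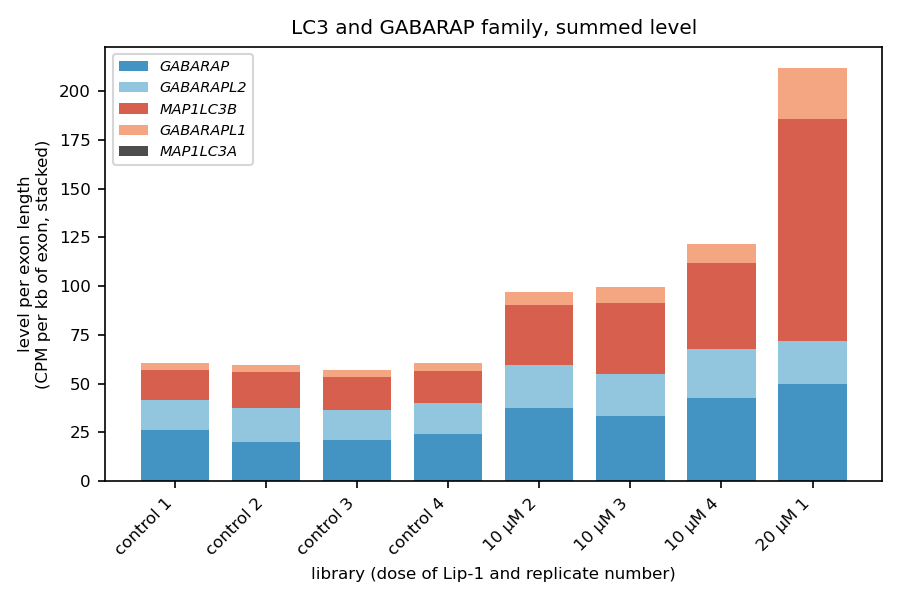
Level per kb of exon of the LC3 and GABARAP family in each library, stacked by gene (MAP1LC3A is too low to be seen). The stacks reach 57.1 to 60.8 CPM per kb in controls, 96.9 to 122 at 10 µM and 212 at 20 µM, and the MAP1LC3B share widens with dose.

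SQSTM1 and OPTN, both cargo receptors, had the largest log2 fold changes among the members that rose at 10 µM. SQSTM1 (p62, chr5:179806398-179838078), which binds ubiquitinated cargo and is itself degraded by autophagy, had 198, 135, 124 and 182 CPM in controls, 515, 623 and 727 CPM at 10 µM and 3202 CPM at 20 µM. The 3 groups were fully apart, and the ratio of mean CPM to control was 3.89 at 10 µM and 20.0 at 20 µM. The log2 fold change was 1.84 at 10 µM (SE 0.16, adjusted p 4.90e-04), with a further 2.37 at 20 µM (SE 0.22, adjusted p 3.50e-04). Across the alternatives tried the 10 µM value ranged from 1.74 to 1.94 and passed each time. Per kb of exon, SQSTM1 was at 20.9 ± 4.70 CPM per kb in controls, level within the spread with GABARAP at 23.0 ± 2.84, and at 418 CPM per kb at 20 µM it was the highest of the 40 genes. MRNIP on the opposite strand shares 20.7% of its exonic bases.

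OPTN (optineurin), a receptor for mitochondria and bacteria, had 25.7, 14.98, 13.1 and 22.3 CPM in controls, 53.2, 55.9 and 81.4 CPM at 10 µM and 277 CPM at 20 µM. The groups did not overlap. OPTN rose by 1.62 on the log2 scale at 10 µM (SE 0.22, adjusted p 0.00251) and by a further 2.13 at 20 µM (SE 0.30, adjusted p 0.00168). Among the 40 genes it ranked 31 per kb of exon in controls, 15 at 10 µM and 3 at 20 µM.

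NBR1, the receptor that shares its domain plan with SQSTM1, was higher at 10 µM and no higher at 20 µM. It had 62.7, 68.1, 64.9 and 65.8 CPM in controls, 131, 147 and 141 CPM at 10 µM and 138 CPM at 20 µM. All Lip-1 libraries were about equal and all above the controls. The log2 fold change was 0.96 at 10 µM (SE 0.10, adjusted p 7.75e-04) and -0.01 for 20 µM over 10 µM (SE 0.15, adjusted p 0.962).

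TAX1BP1 and CALCOCO2 (NDP52), receptors that carry related ubiquitin-binding ends, also rose at 10 µM. TAX1BP1 had 117, 125, 118 and 119 CPM in controls, 152, 183 and 198 CPM at 10 µM and 258 CPM at 20 µM. CALCOCO2 had 69.3, 61.6, 60.5 and 69.8 CPM in controls, 84.2, 84.0 and 118 CPM at 10 µM and 187 CPM at 20 µM. Both were ordered by dose without overlap. At 10 µM the log2 fold change was 0.44 for TAX1BP1 (SE 0.11, adjusted p 0.0238) and 0.42 for CALCOCO2 (SE 0.12, adjusted p 0.0391). The TAX1BP1 call was lost without control 4 or 10 µM replicate 3 or 4 (adjusted p 0.0639, 0.0824 and 0.0722). The CALCOCO2 call passed without 10 µM replicate 2 but was lost without any other 10 µM or control library (adjusted p 0.0552 to 0.123), and without 10 µM replicate 4 its log2 fold change was 0.27. The step to 20 µM was 0.98 for CALCOCO2 (SE 0.17, adjusted p 0.00387) and 0.54 for TAX1BP1 (SE 0.16, adjusted p 0.0349). The TAX1BP1 call at this step did not pass with the replicate block (adjusted p 0.0653) or without control 2 or 4 (adjusted p 0.0505 and 0.0587).

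BNIP3 and BNIP3L (NIX), related receptors anchored in the mitochondrial membrane, moved in opposite directions at 10 µM. BNIP3 had 53.6, 51.6, 56.1 and 49.7 CPM in controls, 31.1, 42.3 and 41.2 CPM at 10 µM and 56.5 CPM at 20 µM. In CPM its 10 µM libraries lay below all controls, and the 20 µM library lay just above the highest, control 3. The tests also apply scaling factors (TMM), 1.03 in the 20 µM library and 0.903 in control 3. The place of the 20 µM library above all controls therefore holds for CPM alone. The log2 fold change was -0.60 at 10 µM (SE 0.13, adjusted p 0.0161), and 20 µM differed from 10 µM by 0.56 (SE 0.19, adjusted p 0.0595). Processed pseudogenes of BNIP3 exist, so its counts are uncertain to that degree.

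BNIP3L had 38.8, 21.0, 21.0 and 42.8 CPM in controls 1 to 4, 44.9, 61.4 and 131 CPM in 10 µM replicates 2 to 4, and 82.9 CPM at 20 µM. Letter-named libraries were high in both groups, with 131 CPM in 10 µM replicate 4 against 38.8 and 42.8 CPM in controls 1 and 4. All Lip-1 libraries exceeded all controls. LYZ followed the same libraries in part, at 106 CPM in 10 µM replicate 4 and 122 and 124 CPM in controls 1 and 4, but at 18.8 CPM in the letter-named 20 µM library. Within the naming patterns the pooled log2 fold change of BNIP3L was 1.18 for digits and 1.24 for letters (adjusted p 0.00217 and 0.235). The letter-named Lip-1 libraries mix 10 and 20 µM. At 10 µM it was 1.23 (SE 0.36, adjusted p 0.0426). Without 10 µM replicate 4 it was 0.69 with adjusted p 0.186, and the call was also lost without control 2 or 3 or 10 µM replicate 3 (adjusted p 0.0965, 0.107 and 0.0783) and with limma-voom (adjusted p 0.0524). BNIP3L also missed the threshold with limma-voom in the pooled comparison (BNIP3L, Lip-1 against control, log2 fold change 1.19, adjusted p 0.0514).

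**Figure D4:**
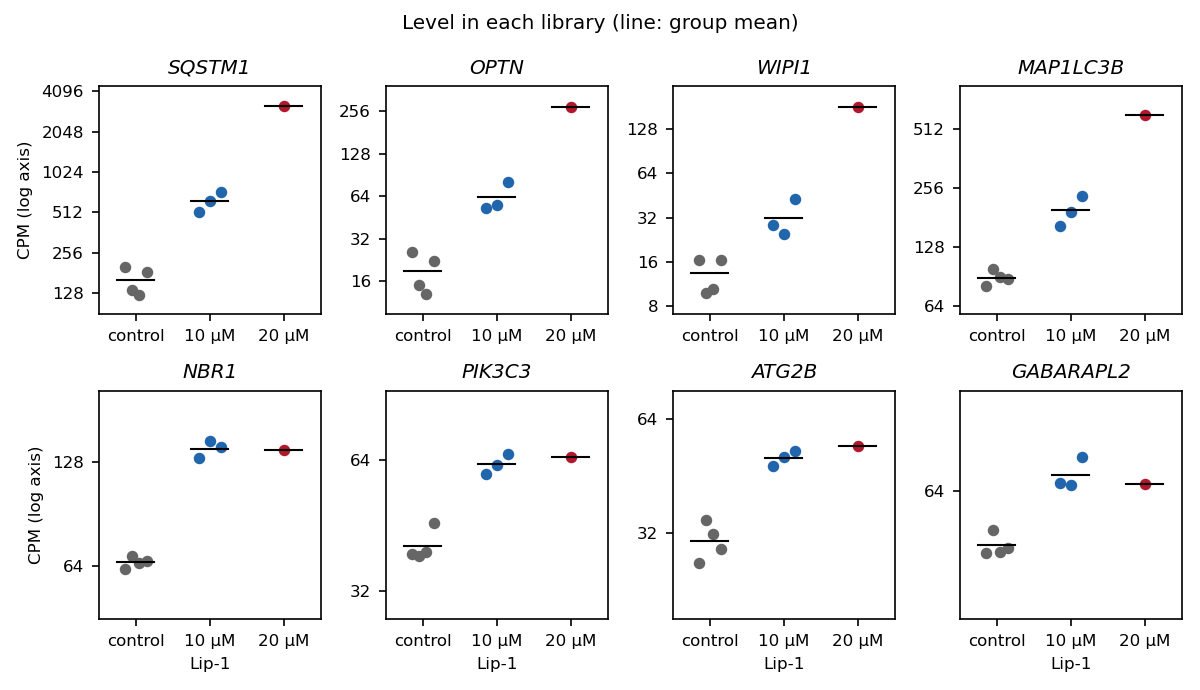
CPM in each library on log2 axes for 8 genes, with a line at the mean of each group (1 library at 20 µM). SQSTM1, OPTN, WIPI1 and MAP1LC3B climb at both doses, SQSTM1 to 3202 CPM, whereas the 20 µM library of NBR1, PIK3C3 and GABARAPL2 lies within the 10 µM libraries and that of ATG2B just above them.

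Of the MiT/TFE factors only TFE3 was called at 10 µM. TFE3 had 45.1, 35.0, 33.1 and 45.5 CPM in controls, 53.0, 54.3 and 69.1 CPM at 10 µM and 167 CPM at 20 µM. The groups did not overlap. At 10 µM the log2 fold change was 0.44 (SE 0.13, adjusted p 0.0396), which did not pass without control 2 or 3 or any 10 µM library (adjusted p 0.0562 to 0.162). The step to 20 µM was 1.51 (SE 0.18, adjusted p 8.06e-04).

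TFEB, the factor best known for lysosomal genes, was low, with 4.15, 2.15, 4.89 and 3.43 CPM in controls, 4.45, 3.20 and 3.37 CPM at 10 µM and 7.45 CPM at 20 µM. Control and 10 µM libraries overlapped fully (log2 fold change -0.12, SE 0.31, adjusted p 0.83), and the 20 µM library was the highest (1.01 over 10 µM, SE 0.45, adjusted p 0.129). MITF had 24.5, 27.7, 26.8 and 25.7 CPM in controls, 26.6, 31.0 and 26.9 CPM at 10 µM and 13.0 CPM at 20 µM. Controls and 10 µM overlapped (log2 fold change -0.02, SE 0.13, adjusted p 0.933), and the 20 µM library was the lowest (-1.12 from 10 µM, SE 0.21, adjusted p 0.00537). TFE3 and MITF thus differed between the doses in opposite directions. These are RNA levels, and the activity of MiT/TFE factors is set largely by where the protein resides in the cell, which was not measured.

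The step between the doses was called for 16 of 39 members, 13 higher at 20 µM (11.7% of all genes) and 3 lower (14.6%), with 26.3% of all genes called in either direction and a median log2 difference of 0.39 for members and 0.01 for all genes. The share of calls among all genes was larger here than at 10 µM, and both steps share the 10 µM libraries. Members that rose at both steps were SQSTM1, OPTN, WIPI1, MAP1LC3B, GABARAPL1, TFE3, ULK1, ATG2A, ATG13, CALCOCO2 and TAX1BP1. For ULK1 the difference was 1.48 (SE 0.33, adjusted p 0.0111), and 0.80 with the replicate block (adjusted p 0.0295). ATG13 differed by 1.14 (SE 0.15, adjusted p 0.00109). Members called at 10 µM whose log2 difference at this step was small were NBR1, GABARAPL2, ATG3, PIK3C3, BNIP3L, ATG2B and ATG16L1, with values from -0.07 to 0.16. For BNIP3L that value was 0.08 with an SE of 0.54, too wide to show how the doses compare. RB1CC1, UVRAG, GABARAP and BNIP3, also called at 10 µM, had differences of 0.63, 0.25, 0.39 and 0.56 at this step and did not pass. With the replicate block RB1CC1 had 1.01 and passed (adjusted p 0.0305).

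Promoters of the members were searched for the motifs of factors known to act on autophagy genes. RefSeq windows (GRCh38.p14) from 250 bases before to 50 bases after each start held 35 of the 40 members in 46 windows, among 35116 windows in all. The CLEAR element core, bound by MiT/TFE factors, was searched as TCACGTGA, and contains the E-box CACGTG, searched by itself as well. The core of the antioxidant response element, bound by NRF2, was searched as TGACNNNGC, and the composite element bound by ATF4 and C/EBP factors as TGATGNAA, each on both strands. TCACGTGA was in 0.98% of all windows and 2.17% of the 46 member windows, in 1 member, ATG3, which fell. CACGTG was in 7.26% of all windows and 6.52% of the member windows, in 3 members, ATG3, ATG14 and BNIP3. TGACNNNGC was in 13.3% of all windows and 6.52% of the member windows, in 3 members, ATG101, MAP1LC3B and CALCOCO2. TGATGNAA was in 3.62% of all windows and in 0 members. These matches are descriptions of the letters and not sites of binding.

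The windows with a match are shown by the match in capitals and 15 bases on either side, read on the strand of the gene. In these members the letters occur near the start. For ATG3 the match to TCACGTGA is shown, and a further CACGTG, 18 bases before the start, is not. ATG3 is at chr3:112561936-112561973 (minus strand, 4 bases after the start), ATG14 at chr14:55411831-55411866 (minus), BNIP3 at chr10:131982037-131982072 (minus), ATG101 at chr12:52069843-52069881 (plus) and CALCOCO2 at chr17:48830891-48830929 (plus, match on the opposite strand).
ATG3: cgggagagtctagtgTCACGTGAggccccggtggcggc
ATG14: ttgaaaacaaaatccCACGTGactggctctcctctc
BNIP3: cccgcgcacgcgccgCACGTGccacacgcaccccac
ATG101: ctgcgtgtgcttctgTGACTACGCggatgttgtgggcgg
CALCOCO2: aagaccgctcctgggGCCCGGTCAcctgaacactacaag
Of these 5 genes, ATG3 and BNIP3 fell at 10 µM, CALCOCO2 rose, and ATG14 and ATG101 did not pass.

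For MAP1LC3B and SQSTM1, an LC3 gene and a cargo receptor called at both dose steps, the 250 bases before the start are given whole, on the plus strand, at chr16:87392086-87392335 and chr5:179820655-179820904. MAP1LC3B has 1 match to TGACNNNGC, in capitals, 46 bases before the start. SQSTM1 has 3 RefSeq windows, and none of the 4 motifs occurs in any of them. The window shown is the third.
MAP1LC3B: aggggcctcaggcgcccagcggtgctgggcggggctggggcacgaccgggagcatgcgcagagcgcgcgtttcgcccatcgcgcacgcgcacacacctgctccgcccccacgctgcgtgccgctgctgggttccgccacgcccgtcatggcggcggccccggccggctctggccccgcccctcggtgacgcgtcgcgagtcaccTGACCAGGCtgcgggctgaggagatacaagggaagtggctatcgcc
SQSTM1: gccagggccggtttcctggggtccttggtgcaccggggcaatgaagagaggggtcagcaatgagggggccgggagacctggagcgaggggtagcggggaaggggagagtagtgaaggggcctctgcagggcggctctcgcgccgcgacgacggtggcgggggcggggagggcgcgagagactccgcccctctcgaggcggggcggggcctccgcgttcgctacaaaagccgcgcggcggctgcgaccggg
The absence of a match says only that these letters are not in these windows.

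Further genes of the pathway were described from 5 lists by their counts. Among all genes 7.47% rose and 6.69% fell in the pooled comparison, and 9.34% rose and 9.79% fell at 10 µM. Of other core and initiation genes, 8 of 14 tested rose in the pooled comparison of Lip-1 with control and 0 fell, with a median log2 fold change of 0.91, and 9 of 14 rose and 1 fell at 10 µM. The 4 with the smallest p in the pooled comparison were EPG5, a tether for fusion with lysosomes (log2 fold change 0.98, SE 0.16), the lipid scramblase TMEM41B (0.95, SE 0.16), ZFYVE1 (DFCP1), a protein of the membrane site where autophagosomes form (1.57, SE 0.29), and RUBCN (Rubicon), an inhibitor of the lipid kinase complex (0.66, SE 0.13). ZFYVE1 was at 6.90 ± 1.03 CPM in controls (SD, n = 4), 17.5 ± 2.05 CPM at 10 µM (SD, n = 3) and 36.5 CPM at 20 µM.

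Of other selective receptors and mitophagy genes, 5 of 17 rose and 1 fell in the pooled comparison (median 0.11), and 5 of 18 rose and 2 fell at 10 µM. Calls in either direction were 35.3% of this list pooled and 38.9% at 10 µM, beside 14.2% and 19.1% of all genes. The first by p were PINK1, the kinase that marks damaged mitochondria (1.32, SE 0.24), CALCOCO1 and CCPG1, receptors for the endoplasmic reticulum (1.93, SE 0.35, and 1.80, SE 0.34), and the mitochondrial receptor BCL2L13 (0.72, SE 0.13). CCPG1 was at 38.8 ± 11.3 CPM in controls, 109 ± 19.9 CPM at 10 µM and 254 CPM at 20 µM.

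Of the genes of fusion with the lysosome, 5 of 15 rose and 0 fell in the pooled comparison (median 0.27), led by LAMP2 (0.78, SE 0.18), the HOPS tethering subunits VPS41 (0.55, SE 0.13) and VPS39 (0.61, SE 0.14), and the SNARE protein SNAP29 (0.48, SE 0.13). At 10 µM 5 of 15 rose and 1 fell. Calls in either direction were 33.3% of the fusion list pooled and 40% at 10 µM, beside 14.2% and 19.1% of all genes. Of genes that control ULK1 and MiT/TFE factors through mTORC1, Rag GTPases and AMPK, 4 of 29 rose and 2 fell (median 0.24), and at 10 µM 5 of 30 rose and 2 fell. Calls in either direction were 20.7% of these genes pooled and 23.3% at 10 µM, not far from the shares of all genes. The first 4 were the Rag GTPase RRAGD (1.83, SE 0.29), the mTORC1 subunit RPTOR, which was lower (-0.52, SE 0.10), and the folliculin partners FNIP2 (1.43, SE 0.33) and FNIP1 (1.28, SE 0.30). RRAGD was low, at 1.74 ± 0.410 CPM in controls, 6.07 ± 1.23 CPM at 10 µM and 8.57 CPM at 20 µM.

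Of lysosomal genes known to carry CLEAR elements, 8 of 23 rose and 0 fell in the pooled comparison (median 0.56), and at 10 µM 11 of 23 rose and 0 fell (median 0.40). The chloride transporter CLCN7 (1.08, SE 0.21), the sialidase NEU1 (2.17, SE 0.49) and the peptidase TPP1 (1.25, SE 0.29) were among the 4 with the smallest p. CLCN7 was at 123 ± 16.9 CPM in controls, 242 ± 35.1 CPM at 10 µM and 402 CPM at 20 µM. These counts stand beside 14.2% of all genes called in the pooled comparison and 19.1% at 10 µM. With any 1 control left out, the 5 lists had 0 to 4 members higher each and 0 lower in the pooled comparison, where 0.475 to 4.26% of all genes were called.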

How the data were processed

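RNA was sequenced from K562 cells, 4 libraries with Lip-1 (10 or 20 µM) and 4 without. RNA was taken up in Trizol, freed of ribosomal RNA by biotin probes, fragmented and primed at random, per the labels' protocols. The authors deposited whole-number counts per gene symbol and library in 1 table. The tools were limma, DESeq2, StringTie, HISAT2 and bcl2fastq 2.0 with hg38, per the submitters' processing notes, and the settings, the annotation and the use of strand are not given in the sources used here. Its 9 lines with no gene name were not used. There are 401 entries at 1 count and 2958 at 4, so 1 count need not be 1 read. Floors cover counting error only.

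CPM was computed as 1000000 times the count over the library total, and levels per kb of exon from GENCODE 29 (GRCh38) exons. Exon length was that of all annotated exons of a gene joined, whichever transcripts the cells express. Whether groups overlapped was judged on CPM, which takes no TMM factor. The TMM factors of the tests were 1.02 to 1.09 in the Lip-1 libraries and 0.903 to 1.00 in the controls. Lip-1 libraries thus stand higher against controls in CPM than on the scale of the tests. Tests used R 4.3.3 and edgeR 4.0.16 (filterByExpr, TMM, quasi-likelihood, two-sided, Benjamini-Hochberg, threshold 0.05), with SE as the size of the log2 fold change over the square root of F. They were tested on simulated counts. Alternatives were other scalings and filters, DESeq2 1.42.0, limma-voom (limma 3.58.1), a replicate block, the library name pattern, and each library left out. Deviations from the group means correlated between control and 10 µM libraries of the same number (r = 0.136, 0.228 and 0.415 over 13101 genes for replicates 2, 3 and 4), and r was 0.129 for control 2 with replicate 3, 0.0887 for control 3 with replicate 2, and -0.302 to -0.189 for the other unlike numbers. Replicates 2 and 3 are the digit-named libraries and 4 is letter-named, so number and name pattern are partly confounded. Every same-numbered r was over 0.1, but so was r for control 2 with replicate 3. All r were positive where both libraries shared a name pattern and negative where they did not. The check therefore cannot decide whether the numbers pair the samples. Libraries numbered 1 were not in the check, though the block includes them. The main tests do not assume pairing, and the block is given as an alternative beside results it changes.

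The members, the lists and the tests were chosen with earlier results of these data known. Values in every library are given for members past the threshold with Lip-1 or at 10 µM and for SQSTM1, MAP1LC3B, GABARAPL1, ULK1, ATG14, WIPI1, BNIP3, BNIP3L, TFEB, TFE3 and MITF. From each further list the 4 genes with the smallest p with Lip-1 are named, except 1 gene that is not reported here.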

Additional observations from a re-analysis of the deposited data

Results flagged for a closer look

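Among 39 members whose 4 controls were examined for a library far from the others, 3 had one, where chance gives about 1 in 20 groups. PIK3C3 was at 45.8 CPM in control 4 and at 38.5 to 39.3 CPM in the other controls. ATG14 was at 13.0 CPM in control 3 and at 15.2 to 15.6 CPM in the others. MAP1LC3A was at 0.149 CPM in control 1 and at 0 in the others.

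The response of 16 members differed between the doses, by the edgeR test of the single 20 µM library against the 3 libraries at 10 µM. The log2 difference was 2.50 for WIPI1, 2.37 for SQSTM1, 2.13 for OPTN, 1.70 for GABARAPL1, 1.62 for MAP1LC3B, 1.51 for TFE3, 1.48 for ULK1, 1.46 for ATG2A, 1.31 for ATG101, 1.14 for ATG13, 0.98 for CALCOCO2, 0.77 for ATG4B and 0.54 for TAX1BP1. It was -1.64 for ATG4C, -1.12 for MITF and -0.69 for ATG10. With 1 library at 20 µM, the dose and the library cannot be told apart.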

How the results depend on the processing

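The number of members called with Lip-1 (16) ran from 1 to 22 when single libraries were left out. It was 0 in letter-named libraries alone, which mix 10 and 20 µM (edgeR, with 17 at an unadjusted p under 0.05). At 10 µM (22) it ran from 14 to 22 with single libraries left out, and for 20 µM against 10 µM (16) from 14 to 18. With the replicate block the numbers were 14, 23 and 14. Genes called among all tested were 1855 with Lip-1, against 3395 with DESeq2, 3348 with the name pattern as a covariate, 2815 with the replicate block, 3021 once the 20 µM library was left out, 3137 in digit-named libraries, and 64 to 3021 with single libraries left out. At 10 µM they were 2842, against 4657 with the block, 4665 with the covariate, and 1364 to 2788 with single libraries left out. Of the values of single members, 864 kept direction and side of the threshold, 165 lost the call, 29 gained one and 7 changed sign. Those were TFEB with Lip-1 (-0.12 to 0.43 with single libraries left out, -0.044 in digit-named libraries), TFEB at 10 µM (-0.31 to 0.0902) and MITF at 10 µM (-0.12 to 0.0353, and 0.0145 with upper-quartile scaling), none of them called. The causes were not tested. Calls at 10 µM that no alternative ended were RB1CC1, PIK3C3, ATG2A, WIPI1, ATG16L1, MAP1LC3B, GABARAP, GABARAPL1, SQSTM1, NBR1, OPTN and BNIP3. The block changed no call of a member other than those given with the results. The depth limits only ULK2 and MAP1LC3A, near 0 in every library.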
